A study of Rattus norvegicus with 3 samples.

Results

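Axon guidance ligands and receptors were read in single cells of injured rat spinal cord, as the semaphorins with their plexin and neuropilin receptors, the ephrins with their Eph receptors, the Slits with their Robo receptors, and the netrins. They were chosen by symbol (Sema, Plxna to Plxnd, Nrp1, Nrp2, Epha, Ephb, Efna, Efnb, Slit1 to Slit3, Robo1 to Robo4 and Ntn genes), not by their values, and 63 of the 25199 features in the deposited tables matched. Of these, 48 had at least 20 UMIs in all and are described here, out of 13253 features of the series with that many. A UMI, or unique molecular identifier, marks 1 captured RNA molecule. The other 15 matching genes held too few counts: Efna3, Efna5, Robo4 and Ntn5 had none, and Plxna4 (19 UMIs), Sema5b (15), Sema3a (13), Epha1 (9), Slit1 (7), Ntn4 (7), Epha10 (5), Epha5 (4), Plxnb1 (3), Robo3 (3) and Epha8 (2) had fewer than 20.

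The study compared 3 injections into the lesion of wild-type rats aged 6 to 8 weeks: PBS, a saline buffer, and 2 preparations that the labels call G-HD and MPG-HD without spelling the names out. By its title the series is about a hydrogel depot meant to repair a severe injury of the cord. All 3 groups carried the injury, each used 5 animals, and a 5 mm stretch of cord around the lesion was dissociated and run on a droplet 3′ single-cell kit. Each group has 1 library, the labels do not say how its animals were pooled, and uninjured cord was not analysed here.

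These families steer growing axons and migrating cells by contact or by secreted cues. Class 3 semaphorins are secreted and signal through plexins, mostly with a neuropilin as the binding partner, while other semaphorins sit in the membrane. Ephrins are themselves anchored to a cell and bind Eph receptor tyrosine kinases on the neighbour, and Slits and netrins are secreted proteins read by Robo receptors and by Dcc or Unc5 receptors. In the injured cord several of them are known as growth inhibitors made in the scar and in myelin.

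The libraries held 1513, 2619 and 2339 barcodes in PBS, G-HD and MPG-HD, with 16081082, 26289759 and 23988263 UMIs, and 1374, 2342 and 2087 cells were kept, at medians of 10294, 9247.5 and 10425 UMIs. The members took 8157, 10998 and 10718 UMIs of these totals. Cells were clustered without the member genes and named from marker sets, so the names are rebuilt ones and are written as "like" classes. No cluster passed as astrocyte-like or neuron-like. Cluster 12 scored highest on oligodendrocyte precursor markers (Olig1 in 81.2% of its 191 cells, Pdgfra in 28.3%, Gpr17 in 1.0%), but its leading genes, among them Pnlip, Nfasc, Bcas1, Fyn and Enpp6, hold none of those markers, so it is called by its number and counted as a class of its own. The monocyte-like class is cluster 20, with Fcnb, Plac8, Ctsg and Elane among its leading genes. Of its markers, Plac8 was in 98.3% of its 58 cells and F10 in 0%. Between 5 and 8 barcodes were shared by each pair of libraries. Levels are counts per 1000000 UMIs of the class (CPM). With 1 library per group no test, p-value or error between animals exists, and every interval is an exact 95% interval that covers counting error only.

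The members differed widely in the cells that carried them. Among the 12 classes with at least 50 cells, the level was highest in fibroblast-like cells for 12 of the 48 members, in cluster 12 for 9, in endothelial-like cells for 8 and in Schwann cell-like cells for 6. Oligodendrocyte-like and mural-like cells each led for 3 members, macrophage-like and B cell-like cells for 2, and microglia-like, monocyte-like and T cell-like cells for 1. For 25 of the 48 the interval of the ratio of the highest class to the next began below 1, and the highest class of Efna2 and Ephb6 rests on 1 and 2 UMIs. Of these classes 6 held 50 cells or more in every library (macrophage-, microglia-, oligodendrocyte-, fibroblast-, Schwann cell- and T cell-like). Over those 6, 35 of the 48 members had the same highest class in all 3 libraries. The 6 leave out cluster 12 and endothelial-, mural-, B cell- and monocyte-like cells. For members led by one of those, this count concerns a lesser class.

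**Figure D1:**
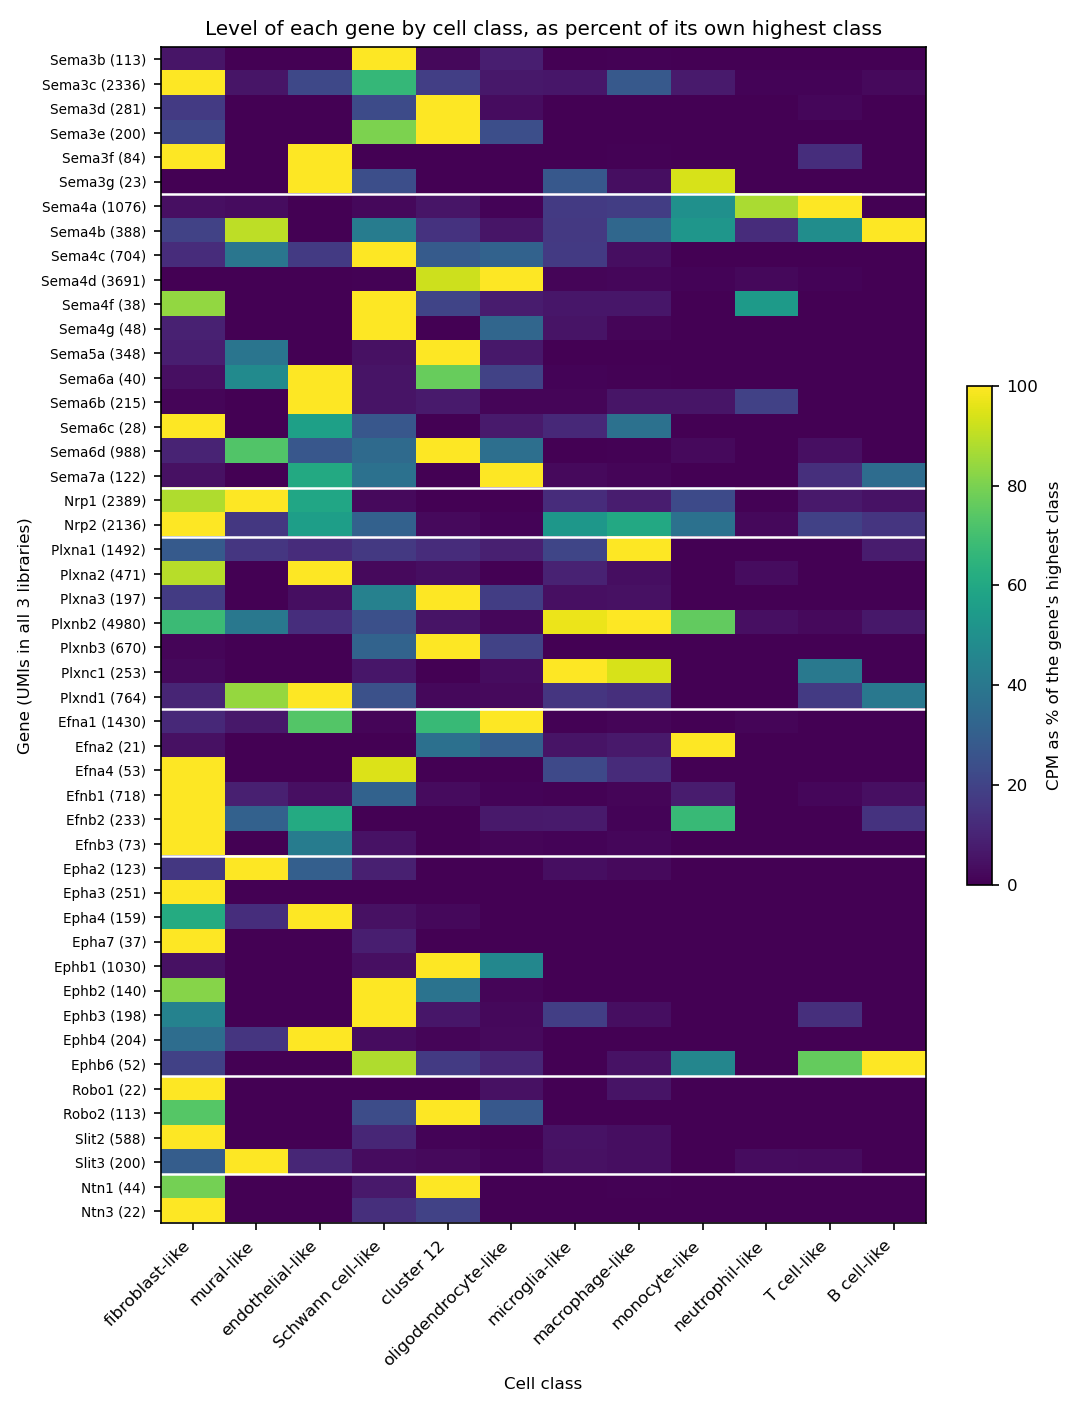
Level of each of the 48 members (vertical axis, with its UMIs over all libraries) in 12 cell classes (horizontal axis), pooled over the 3 libraries and coloured from 0 to 100 percent of that gene's own highest class. White lines separate the role groups, and levels of different genes cannot be compared by colour. The fibroblast-like column holds the top value of 12 members and the cluster 12 column that of 9.

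Summed over the matching genes, the pooled level was 1093 CPM in cluster 12, 917 CPM in fibroblast-like, 648 CPM in endothelial-like, 639 CPM in oligodendrocyte-like and 521 CPM in Schwann cell-like cells. It was lower in macrophage-like cells at 312 CPM, microglia-like cells at 259.6 CPM and T cell-like cells at 191 CPM. What made up the sum differed by class. Plexins gave 4123 of the 7589 member UMIs of macrophage-like cells and 1675 of the 3183 of microglia-like cells. Transmembrane and anchored semaphorins gave 3786 of the 6164 in oligodendrocyte-like cells, and no role group gave that large a part in fibroblast-like cells, where the neuropilins with 1704 of 6375 and the class 3 semaphorins with 1098 came first.

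The promoters of 3 members are shown because, among the members with a RefSeq entry and at least 50 UMIs in the pair of libraries, their fibroblast-like levels stood farthest apart between G-HD and PBS: Sema3c and Epha3 lower in G-HD, Nrp1 higher. RefSeq (GRCr8) holds such a window, 250 bases before to 50 after the gene start, for 38 of the 48 members. The windows are chr4:18699578-18699877 on the minus strand for Sema3c, chr11:14920376-14920675 on the minus strand for Epha3 and chr19:73256307-73256606 on the plus strand for Nrp1, each written 5′ to 3′ along the gene with every CG pair in capitals.
Sema3c: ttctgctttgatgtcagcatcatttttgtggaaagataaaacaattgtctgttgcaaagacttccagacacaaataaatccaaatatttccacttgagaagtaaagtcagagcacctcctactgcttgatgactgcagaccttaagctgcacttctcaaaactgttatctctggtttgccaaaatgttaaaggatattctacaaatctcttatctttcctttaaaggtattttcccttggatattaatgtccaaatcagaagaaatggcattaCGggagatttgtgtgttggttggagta
Epha3: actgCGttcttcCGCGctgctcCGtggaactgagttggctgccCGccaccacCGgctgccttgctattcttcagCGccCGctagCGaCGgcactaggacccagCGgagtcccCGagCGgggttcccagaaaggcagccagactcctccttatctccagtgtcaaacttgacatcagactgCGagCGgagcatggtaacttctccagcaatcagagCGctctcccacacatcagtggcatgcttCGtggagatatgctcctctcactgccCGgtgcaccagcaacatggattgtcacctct
Nrp1: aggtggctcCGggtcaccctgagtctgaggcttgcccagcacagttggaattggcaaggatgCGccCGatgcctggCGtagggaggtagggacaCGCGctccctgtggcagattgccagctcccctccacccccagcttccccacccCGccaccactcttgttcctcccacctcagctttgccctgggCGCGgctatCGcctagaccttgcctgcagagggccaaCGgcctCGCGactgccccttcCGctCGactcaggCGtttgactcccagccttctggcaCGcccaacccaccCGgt
The windows differ in base make-up. Sema3c has 1 CG pair and 36.3% G or C, whereas Epha3 and Nrp1 have 18 CG pairs each and 59.3% and 66.3% G or C. Over all 33469 promoters of the table the medians are 7 CG pairs and 51.7%, 13.6% of windows have at most 1 pair, and 27.5% have at least 18. A CG count describes the window and says nothing of its methylation, which was not measured.

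Among the secreted class 3 semaphorins, Sema3c (ENSRNOG00000006526), whose product signals through both neuropilins, was read most (2336 UMIs). Its pooled level was 128 CPM in fibroblast-like, 85.4 CPM in Schwann cell-like and 35.6 CPM in macrophage-like cells. In fibroblast-like cells it was 204 CPM in PBS (383 UMIs), 64.4 CPM in G-HD (178 UMIs) and 143 CPM in MPG-HD (330 UMIs). PBS stood highest and G-HD lowest, and no pair of these intervals overlapped. In macrophage-like cells the same gene read 34.8, 34.8 and 37.7 CPM, so the libraries were level there. In Schwann cell-like cells it read 110.3, 65.6 and 93.0 CPM, again lowest in G-HD, with the PBS and G-HD intervals meeting at their ends (83.3 to 143 and 50.8 to 83.3).

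The other class 3 ligands had different homes. Sema3d was highest in cluster 12, at 39.2 CPM in PBS, 95.2 in G-HD and 67.6 in MPG-HD, from 42, 64 and 85 cells. Sema3e, the ligand that binds Plxnd1 without a neuropilin, was highest in the same class at 22.7, 34.8 and 18.9 CPM, and close behind in Schwann cell-like cells at 21.7, 23.5 and 15.7 CPM. Those intervals overlapped across the libraries for Sema3e, while for Sema3d the PBS interval (23.6 to 61.2) lay below that of G-HD (71.1 to 125). Sema3b was a Schwann cell-like gene, with 33.5 CPM in PBS, 38.2 in G-HD and 15.7 in MPG-HD against 2.38 CPM pooled in oligodendrocyte-like cells. MPG-HD was the low library, and its interval (8.95 to 25.4) lay below that of G-HD (27.2 to 52.2). Sema3f was level between endothelial-like and fibroblast-like cells (9.79 and 9.78 CPM pooled). Sema3g, with 23 UMIs in all, was highest in endothelial-like cells at 3.26 CPM, from 4 UMIs there.

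The membrane semaphorins were led by Sema4d (3691 UMIs), a ligand of B plexins that oligodendrocytes carry. It read 331 CPM in PBS, 329 in G-HD and 279 in MPG-HD in oligodendrocyte-like cells, where MPG-HD was the lowest. The ratio of MPG-HD was 0.841 to PBS (0.772 to 0.916) and 0.846 to G-HD (0.771 to 0.930). In cluster 12 Sema4d read 491, 141 and 243 CPM, with PBS highest and G-HD lowest and 3 intervals that did not overlap (430 to 557, 111 to 176, 209 to 282). In PBS 1 cell held 60 of the 238 UMIs. No other class with at least 50 cells passed 5.98 CPM pooled. The summed level of 8 oligodendrocyte markers in cluster 12 was also highest in PBS and lowest in G-HD, at 57307, 28793 and 41650 CPM in PBS, G-HD and MPG-HD (8, 7 and 8 above 0, Ermn at 0 in G-HD), and its part in the levels of this cluster was not tested.

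Sema6d, a ligand of Plxna1, was spread over more classes: 125 CPM pooled in cluster 12, 91.2 in mural-like, 45.6 in oligodendrocyte-like and 43.1 in Schwann cell-like cells. In cluster 12 it read 153 CPM in PBS, 56.8 in G-HD and 158 in MPG-HD, with G-HD low and its interval (38.6 to 80.6) apart from the other two. Sema4c, which binds Plxnb2, was highest in Schwann cell-like cells at 53.2, 71.5 and 58.7 CPM, with overlapping intervals. Sema4a, a semaphorin of immune cells, was highest in T cell-like cells at 112, 115 and 97.2 CPM, also with overlapping intervals, and its pooled level was 95.7 CPM in neutrophil-like cells. Within the macrophage-like class it followed the clusters, with 71.4 CPM in cluster 5 against 14.2 CPM in cluster 1 and 9.39 CPM in cluster 3. Cluster 5 is led by class II antigen presentation genes, and its leading genes hold no macrophage marker. It scored highest on dendritic cell markers, but fewer than 3 of them reached 20% of its cells, so it took the macrophage name.

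The remaining membrane semaphorins held fewer counts. Sema5a was highest in cluster 12 at 113, 76.9 and 105.5 CPM in PBS, G-HD and MPG-HD, with overlapping intervals. Sema6b was highest in endothelial-like cells at 59.9, 59.9 and 39.2 CPM, likewise overlapping, from 37, 42 and 33 cells. Sema7a, the member anchored by a lipid, was highest in oligodendrocyte-like cells at 10.8, 11.6 and 7.89 CPM. By pooled level Sema4b led in B cell-like cells (23.3 CPM, 7 UMIs). Sema4g and Sema4f led in Schwann cell-like cells (6.27 and 2.74 CPM, 16 and 7 UMIs). Sema6a led in endothelial-like cells (7.34 CPM, 9 UMIs) and Sema6c in fibroblast-like cells (1.44 CPM, 10 UMIs).

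The neuropilins, which bind class 3 semaphorins and vascular growth factors, parted by class. Nrp1 (ENSRNOG00000010744) read 203 CPM pooled in mural-like, 179 in fibroblast-like and 121 in endothelial-like cells, against 26.2 in microglia-like and 0.518 in oligodendrocyte-like cells. In fibroblast-like cells it read 104 CPM in PBS (195 UMIs), 263 in G-HD (726 UMIs) and 142 in MPG-HD (327 UMIs). G-HD was the high library, and no pair of intervals overlapped. In endothelial-like cells the order turned, with 166 CPM in PBS, 76.6 in G-HD and 115 in MPG-HD, from 37, 42 and 33 cells.

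Nrp2 (ENSRNOG00000031232) read 65.6 CPM pooled in fibroblast-like, 39.5 in macrophage-like and 34.7 in microglia-like cells. In fibroblast-like cells the libraries were close at 71.8, 59.7 and 67.6 CPM. In microglia-like cells it read 45.6 CPM in PBS, 22.7 in G-HD and 35.7 in MPG-HD, with G-HD lowest and its interval (18.1 to 28.2) apart from both others. In Schwann cell-like cells it read 7.88 CPM in PBS, from 4 UMIs, 30.4 in G-HD and 16.6 in MPG-HD, and here G-HD was highest.

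The plexins, which are the signalling receptors of the semaphorins, divided between immune, vascular and glial classes. Plxnb2 (4980 UMIs), the member with the most UMIs, read 117, 105 and 97.0 CPM in macrophage-like cells of PBS, G-HD and MPG-HD, 109.8, 116 and 86.8 in microglia-like cells, and 66.5, 78.5 and 68.0 in fibroblast-like cells. MPG-HD was the lowest library in both myeloid classes, by less than 1.5-fold. Its pooled level in oligodendrocyte-like cells was 1.86 CPM. Plxna1, a partner of neuropilins and of Sema6d, was a macrophage-like gene with 38.6, 47.2 and 43.9 CPM, while its pooled level in the next class, fibroblast-like cells, was 12.5 CPM. Within the macrophage-like class its level also differed, with 50.1 CPM in cluster 1, led by Mmp12, 42.1 in cluster 3 and 18.1 in cluster 5. Cluster 5 is the one that scored highest on dendritic cell markers.

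Plxnd1, the receptor of Sema3e, read 122 CPM in PBS, 76.6 in G-HD and 42.0 in MPG-HD in endothelial-like cells. The PBS interval (91.9 to 159) lay above that of MPG-HD (23.5 to 69.2). Plxnb3, a receptor of Sema5a, was highest in cluster 12 at 144, 91.6 and 158 CPM, the same class in which Sema5a was highest, and read 55.1, 32.3 and 47.0 CPM in Schwann cell-like cells. By pooled level Plxna2 led in endothelial-like cells (44.9 CPM, with 40.1 in fibroblast-like cells), Plxna3 in cluster 12 (23.2 CPM) and Plxnc1, a receptor of Sema7a, in microglia-like cells (6.28 CPM, with 5.89 in macrophage-like cells).

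Of the ephrins, Efna1, which is lipid-anchored, was highest in oligodendrocyte-like cells at 109.6, 119 and 102.5 CPM, with overlapping intervals. Among the clusters of the class it read 144 CPM in cluster 7, 81.7 in cluster 4 and, from 6 UMIs, less in cluster 14. It was also read at 79.2 CPM pooled in endothelial-like cells. By pooled level the transmembrane ephrins were highest in fibroblast-like cells. Efnb1 stood apart from the next class, at a ratio of 3.17 (2.45 to 4.16). For Efnb2 and Efnb3 the interval of that ratio began below 1. Pooled Efnb2 was 22.7 CPM in fibroblast-like, 15.3 in monocyte-like (5 UMIs) and 13.9 in endothelial-like cells. In fibroblast-like cells Efnb1 read 78.2 CPM in PBS, 98.4 in G-HD and 61.5 in MPG-HD. G-HD was highest, and its interval (87.1 to 111) lay above that of MPG-HD (51.8 to 72.5). Efnb2 read 18.6, 27.9 and 19.9 CPM and Efnb3 9.57, 8.69 and 5.20 CPM in the same class, with overlapping intervals. Efna4 (53 UMIs) was highest in fibroblast-like cells at 3.31 CPM pooled, and Efna2 (21 UMIs in all) in monocyte-like cells, from 1 UMI there, under the 3 UMIs taken as the floor.

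Among the Eph receptors, Ephb1 (1030 UMIs) was highest in cluster 12 and in oligodendrocyte-like cells, with 194, 109.9 and 150.1 CPM in cluster 12 and 64.1, 73.9 and 70.0 CPM in oligodendrocyte-like cells. The libraries overlapped in the latter class, and in the former PBS (157 to 237) lay above G-HD (83.9 to 141). Epha3 (ENSRNOG00000030285) was nearly a single-class gene: 247 of its 249 UMIs in kept cells came from fibroblast-like cells. It read 54.2 CPM in PBS (102 UMIs), 19.2 in G-HD (53 UMIs) and 39.8 in MPG-HD (92 UMIs), lowest in G-HD. Ephb4, a receptor of ephrin-B2 in vessels, was highest in endothelial-like cells at 42.2, 43.1 and 53.2 CPM, and Ephb3 in Schwann cell-like cells at 21.7, 13.7 and 22.5 CPM, both with overlapping intervals. By pooled level Epha4 led in endothelial-like cells (26.9 CPM, with 16.5 in fibroblast-like cells), Epha2 in mural-like (35.1 CPM), Ephb2 in Schwann cell-like (13.3 CPM), Epha7 in fibroblast-like (4.60 CPM) and Ephb6 in B cell-like cells (from 2 UMIs, under the floor of 3).

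The Slit ligands were stromal and their Robo receptors were scarce. Slit2 (ENSRNOG00000003840) read 102 CPM in PBS (191 UMIs), 32.9 in G-HD (91 UMIs) and 74.9 in MPG-HD (173 UMIs) in fibroblast-like cells, against 7.06 CPM pooled in Schwann cell-like cells. G-HD was lowest, and no pair of intervals overlapped. Slit3 was highest in mural-like cells (45.6 CPM pooled, 13 UMIs) and read 20.7, 8.32 and 13.4 CPM in fibroblast-like cells, again lowest in G-HD. Robo2 read 4.79, 9.77 and 6.93 CPM and Robo1 3.19, 2.53 and 1.30 CPM in fibroblast-like cells, from 3 to 27 UMIs per library, with overlapping intervals. Robo2 was highest in cluster 12, at 10.2 CPM pooled. The netrins were at the edge of detection: Ntn1 read 5.65 CPM pooled in cluster 12 and 4.46 CPM in fibroblast-like cells (10, 13 and 8 UMIs in PBS, G-HD and MPG-HD), and Ntn3 2.88 CPM in fibroblast-like cells (7, 10 and 3 UMIs).

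**Figure D2:**
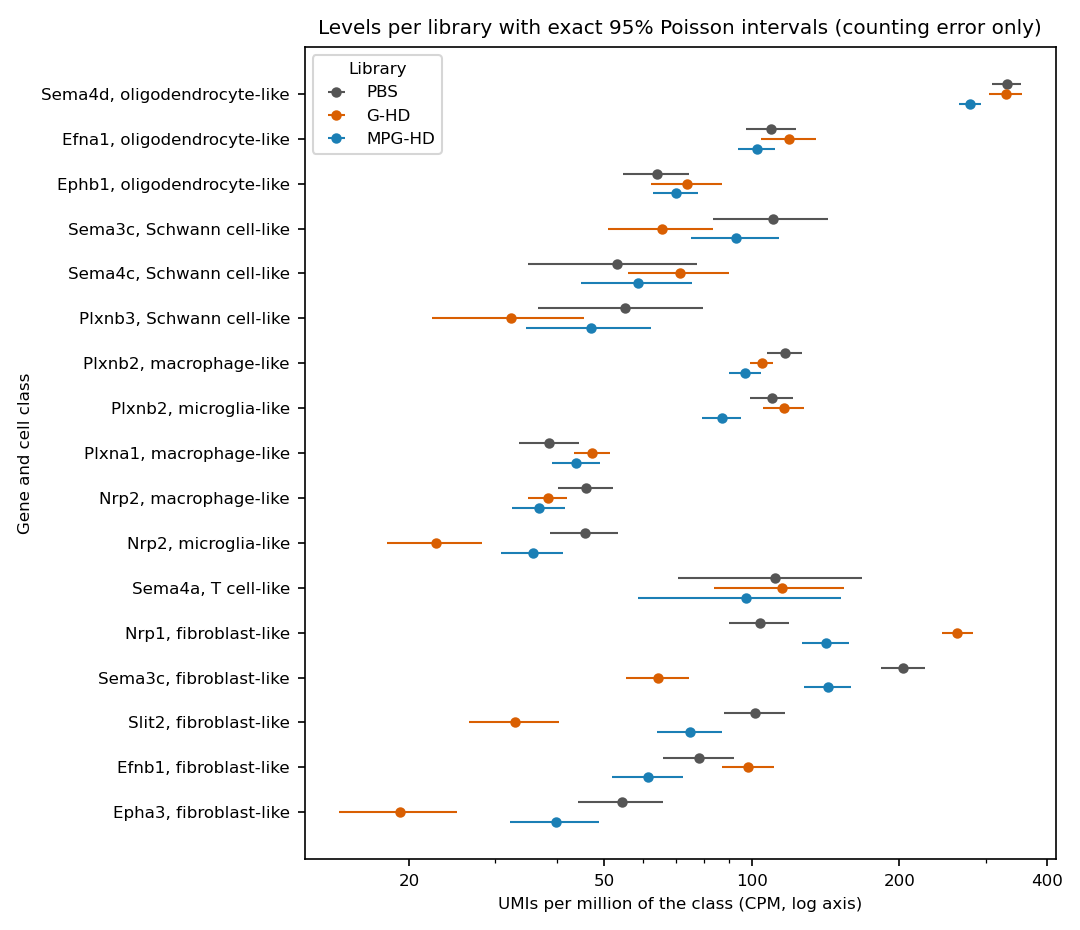
Level in CPM of the class (horizontal log axis) of 17 gene and class combinations (vertical axis) in the PBS, G-HD and MPG-HD libraries, with exact 95% Poisson intervals for counting error. Points of the glial and immune classes lie mostly within reach of each other's intervals. Sema4d in oligodendrocyte-like and Plxnb2 in microglia-like cells have the MPG-HD point apart. Nrp1, Sema3c, Slit2 and Epha3 in fibroblast-like cells and Nrp2 in microglia-like cells have the G-HD point apart.

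The first library comparison asked which members differed between G-HD and the PBS control. In G-HD, fibroblast-like cells read Nrp1 higher and Sema3c, Slit2, Epha3 and Slit3 lower than in PBS, and microglia-like cells read Nrp2 lower. Taking a ratio of CPM of at least 2 or at most 0.5, and no fewer than 20 UMIs over the pair of class sums, 10 of 86 gene and class pairs of the members were higher and 9 lower in G-HD. Over all genes in the same 6 classes, 3.7% of pairs were higher and 2.78% lower, against 11.6% and 10.5% of the members' pairs. The members' pairs held fewer counts, with a median of 57 UMIs against 115 over all genes, and what that adds to their share was not tested.

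Of the members' 19 pairs, 13 were in fibroblast-like cells, where 7 of 32 measured members were higher and 6 lower. The same rule took 5.96% of all genes as higher and 4.6% as lower in that class. The median log2 ratio was -0.08 for the members and 0.04 for all genes. The other pairs were Sema6b in macrophage-like, Sema4d in microglia-like and Nrp2 in Schwann cell-like cells on the higher side, and Nrp2 in microglia-like, Sema5a in oligodendrocyte-like and Ephb2 in Schwann cell-like cells on the lower side. The intervals of Sema5a (6 against 19 UMIs) and Ephb2 (10 against 11 UMIs) reached above 1. Each was 1 member of the 10 to 16 measured in its class and direction, where the same rule took 2.61%, 2.51% and 3.93% of all genes on the higher side (macrophage-, microglia- and Schwann cell-like) and 1.75%, 1.89% and 2.44% on the lower (microglia-, oligodendrocyte- and Schwann cell-like).

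The ligands Sema3c, Slit2 and Slit3 were lower together in fibroblast-like cells of G-HD. The ratio of G-HD to PBS was 0.316 for Sema3c (0.263 to 0.379), 0.324 for Slit2 (0.250 to 0.418) and 0.401 for Slit3 (0.229 to 0.689). The receptor Epha3 had a ratio of 0.354 (0.249 to 0.498). In the opposite direction Nrp1, a receptor for Sema3c, had a ratio of 2.53 (2.16 to 2.98), while Nrp2 in the same cells had 59.7 against 71.8 CPM. In PBS a single cell held 23 of the 191 Slit2 UMIs and 15 of the 102 Epha3 UMIs, and no call among these genes turned when the top cell of each library was left out.

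With fewer UMIs, Sema3e (6 against 16 UMIs, ratio 0.255) and Ephb3 (13 against 20, ratio 0.442) were also lower. Epha7 (20 against 2 UMIs, ratio 6.81), Sema4a (18 against 4, 3.06), Sema4b (19 against 5, 2.59), Ephb1 (29 against 8, 2.47), Sema4c (27 against 8, 2.30) and Robo2 (27 against 9, 2.04) were higher. The intervals of Sema4b and Robo2 reached below 1, and in PBS 1 cell held 5 of the 8 Ephb1 UMIs. Outside fibroblast-like cells, Nrp2 in microglia-like cells had a ratio of 0.498 (0.377 to 0.655), just past the limit, and Sema6b in macrophage-like cells, at 3.88 against 1.35 CPM (47 and 7 UMIs), 2.89 (1.30 to 7.57). Just inside the limit of 0.5 lay Epha4 in fibroblast-like cells, at 11.9 against 22.9 CPM.

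**Figure D3:**
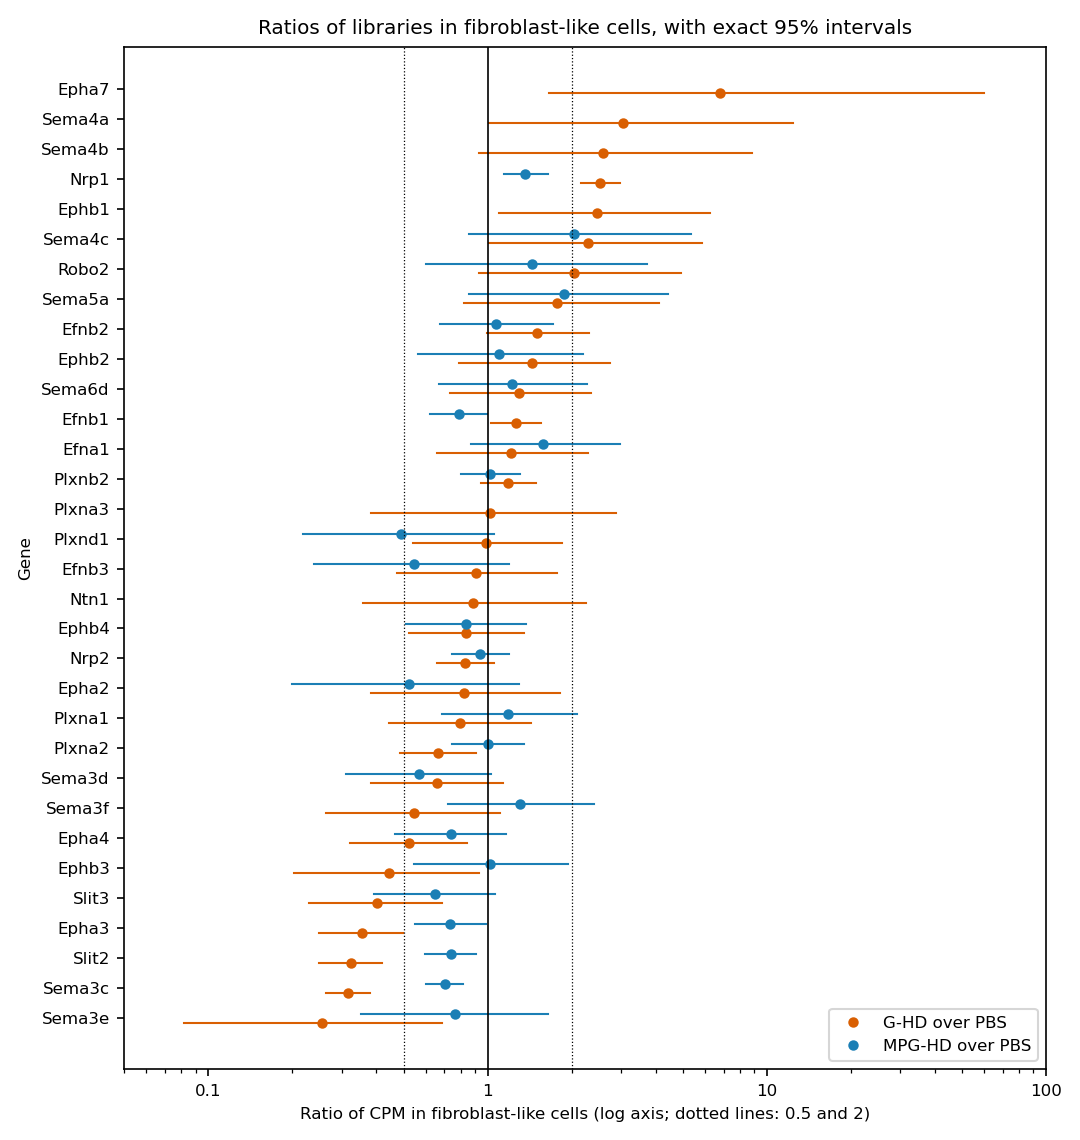
Ratio of CPM in fibroblast-like cells (horizontal log axis) of G-HD over PBS (orange) and MPG-HD over PBS (blue) for the 32 members with at least 20 UMIs in the G-HD and PBS sums together (vertical axis), with exact 95% intervals. Solid and dotted lines mark ratios of 1, 0.5 and 2, both comparisons share the PBS library, and a gene without a blue point had too few UMIs in that comparison. Sema3c, Slit2, Epha3 and Slit3 lie left of the 0.5 line and Nrp1 right of the 2 line for G-HD.

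The fibroblast-like class was not made of the same clusters in the libraries. Cluster 8, led by Igf2 and A2m, held 35.3% of the class in PBS, 73.4% in G-HD and 35.7% in MPG-HD. Cluster 13, led by Smoc2 and Igfbp5, held 43.4%, 21.1% and 48.2%, and cluster 18, led by Sfrp2 and Eln, 21.3%, 5.49% and 16.1%. The levels of the members differed between these clusters. Nrp1 was highest in cluster 8 (310.0 CPM pooled, against 57.4 in cluster 13 and 70.4 in cluster 18), and so were Efnb1 (113, 60.1 and 28.5 CPM), Ephb1 (13.9, 0 and 0 CPM) and Robo2 (14.5, 0.385 and 2.85 CPM).

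Slit2 was highest in cluster 13, at 141 CPM against 20.9 in cluster 8 and less than that in cluster 18, and so was Nrp2 at 114 CPM against 41.1 and 22.8. Cluster 18 led for Sema3c (271 CPM, with 177 in cluster 13 and 44.1 in cluster 8), Epha3 (103, 43.6 and 7.86 CPM) and Slit3 (55.1, 7.71 and 4.54 CPM). Sema3c, Slit2, Epha3 and Slit3, which read lower in G-HD, thus had their highest level in cluster 13 or 18, and Nrp1, which read higher, in cluster 8.

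Within a cluster the library differences were smaller for several members. For Sema3c the ratio of G-HD to PBS was 1.12 in cluster 8 (0.678 to 1.96), 0.411 in cluster 13 (0.298 to 0.558) and 0.633 in cluster 18 (0.436 to 0.902). For Slit2 it was 0.550 in cluster 8 (0.297 to 1.06) and 0.574 in cluster 13 (0.415 to 0.782). Inside cluster 13 both ligands read lower in G-HD. For Slit3 the ratio was 1.41 in cluster 13 (0.28 to 6.555), from 4 and 5 UMIs, and 0.826 in cluster 18 (0.372 to 1.70). Both Slit3 intervals reached across 1. Ephb1 and Robo2, highest in cluster 8, had ratios there of 0.912 (0.407 to 2.31) and 0.849 (0.375 to 2.16). For Nrp1 the ratio was 1.35 in cluster 8 (1.11 to 1.64), 1.01 in cluster 13 (0.610 to 1.64) and 2.90 in cluster 18 (1.59 to 5.38), and for Epha3 0.272 (0.115 to 0.653), 0.625 (0.337 to 1.11) and 1.19 (0.684 to 2.03). When the 3 clusters were given equal weight, a choice made after seeing the data, the log2 ratio moved from -1.66 to -0.79 for Sema3c, from -1.62 to -0.84 for Slit2, from 1.34 to 0.61 for Nrp1, from -1.50 to -0.15 for Epha3 and from -1.32 to -0.30 for Slit3. None of these 5 stayed past 2-fold with that weight. It counts cluster 18, with 13 G-HD cells, as much as the larger clusters. Epha3 in cluster 8 had 13 UMIs in G-HD and 12 in PBS.

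**Figure D4:**
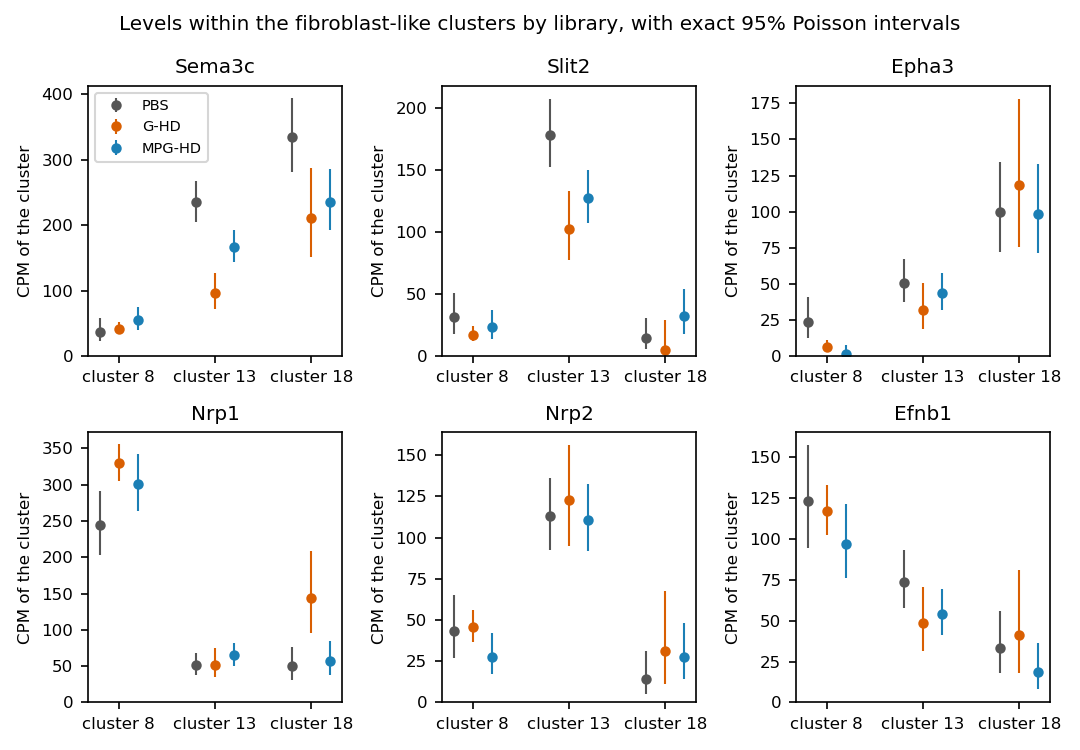
Level in CPM of the cluster (vertical axis, from 0) of 6 members in the fibroblast-like clusters 8, 13 and 18 (horizontal axis) for each library, with exact 95% Poisson intervals. Sema3c separates the libraries inside cluster 13, where Slit2 is highest in PBS and its G-HD and MPG-HD intervals overlap. Nrp1 stands higher in cluster 8 than in cluster 13 in every library, and Epha3 is highest in cluster 18 in every library.

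Markers of other cells in the fibroblast-like class also differed between the libraries. The summed level of 7 endothelial markers was 66.5, 168 and 61.5 CPM in PBS, G-HD and MPG-HD (6, 7 and 7 above 0, Esam at 0 in PBS), that of 9 macrophage markers 279, 716 and 540.1 CPM (Ms4a7 at 0 in PBS and G-HD, Cd163 in all 3), and that of 8 neutrophil markers 6.38, 61.5 and 3.90 CPM (5, 6 and 4 above 0, Ltf and Retnlg at 0 in all 3). Their part in the results was not tested. The sum of 8 mural markers was 244, 284 and 295 CPM (7, 8 and 5 above 0, Notch3 at 0 in PBS and Myh11, Notch3 and Rgs5 at 0 in MPG-HD). Nrp1 in G-HD read 312 CPM in mural-like (24 cells), 76.6 CPM in endothelial-like and 18.1 CPM in macrophage-like cells, beside 263 CPM in fibroblast-like cells. Summed fibroblast markers were close, at 19607, 18353 and 19225 CPM.

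In microglia-like cells cluster 11, led by the interferon-response genes Mx1, Slfn4 and Ifit3, held 29 of 285 cells in PBS, 110 of 307 in G-HD and 65 of 407 in MPG-HD. Nrp2 was lower in G-HD in both of its clusters, at a ratio of 0.558 in cluster 0 (0.406 to 0.761) and 0.381 in cluster 11 (0.193 to 0.765). Both intervals lay below 1.

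The second comparison set MPG-HD against PBS, with the same PBS library as the control. Fewer members stood apart: 3 of 80 pairs were higher and 5 lower, where 1.99% and 2.59% of all pairs were, and none of the 8 had 50 UMIs in both sums together. The higher pairs were Sema6b in macrophage-like (22 against 7 UMIs, ratio 2.34), Sema4c in fibroblast-like (20 against 8, 2.04) and Nrp2 in Schwann cell-like cells (17 against 4, 2.11), and the intervals of all 3 reached below 1. Lower were Slit2 and Ephb3 in microglia-like, Plxnd1 in fibroblast-like, and Sema3b and Sema3d in Schwann cell-like cells, at ratios of 0.404 to 0.496, and the intervals of Ephb3, Plxnd1 and Sema3d reached above 1. Of all genes, 1.22% were higher in macrophage-like and 2.98% in Schwann cell-like cells, and 1.54% were lower in microglia-like and 2.95% in Schwann cell-like cells.

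The members that set G-HD apart in fibroblast-like cells lay between the other 2 libraries in MPG-HD. The ratio of MPG-HD to PBS was 0.702 for Sema3c (0.604 to 0.815), 0.738 for Slit2 (0.597 to 0.911), 0.735 for Epha3 (0.548 to 0.984) and 1.37 for Nrp1 (1.14 to 1.64). These ratios share the PBS library with those of G-HD, for which the genes were picked. In fibroblast-like cells 1 of 26 measured members was higher and 1 lower, beside 2.27% and 3.62% of all genes.

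The last comparison set the 2 preparations against each other, and it shares its libraries with the first 2. In MPG-HD, fibroblast-like cells read Sema3c, Slit2 and Epha3 higher than in G-HD, and Schwann cell-like cells read Sema3b lower. In all, 7 of 89 pairs were higher and 4 lower in MPG-HD, against 1.62% and 3.22% of all pairs. The members' pairs again held fewer counts, with a median of 63 UMIs against 130. Of these, 6 higher and 2 lower were among the 32 members measured in fibroblast-like cells, where 2.87% and 5.42% of all genes were. The ratio of MPG-HD to G-HD was 2.22 for Sema3c (1.84 to 2.68), 2.28 for Slit2 (1.76 to 2.97) and 2.08 for Epha3 (1.47 to 2.97). Just inside the limit of 0.5 lay Nrp1 in fibroblast-like cells, at 0.539 (0.472 to 0.615), from 327 against 726 UMIs.

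Sema3f (32 against 16 UMIs, ratio 2.39), Ephb3 (25 against 13, 2.30) and Sema3e (15 against 6, 2.99) were higher in the same class. Ephb1 (9 against 29 UMIs, ratio 0.371, 6 of the 9 in 1 cell) and Plxnd1 (12 against 29, 0.495) were lower. In Schwann cell-like cells Sema3b had a ratio of 0.410 (0.214 to 0.751), and in oligodendrocyte-like cells Sema5a read 7.49 against 3.01 CPM (38 and 6 UMIs, ratio 2.49). In macrophage-like cells Efna1 was lower (7 against 25 UMIs, ratio 0.486), and its interval and that of Plxnd1 reached past 1. In these classes 2.8% of all genes were lower in Schwann cell-like, 1.28% higher in oligodendrocyte-like and 2.32% lower in macrophage-like cells. The Epha3 difference turned under the alternatives of depth and of cluster weight. Its log2 ratio of 1.05 became -0.17 when every cell was thinned to 1000 UMIs. Thinning left few counts, with 21 measured pairs in this comparison against 89 before. The Epha3 log2 ratio became -0.13 when the 3 fibroblast-like clusters weighed the same, and that weight brought Sema3c to 0.39 and Slit2 to 0.55.

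Beside the members, 68 other genes of axon guidance were followed: further receptors such as Dcc and Unc5b, other ligands and inhibitors such as Rgma and Rtn4, and signal transducers such as Pak1 and Fyn. All 68 were in the files. Of their gene and class pairs, 4 of 171 were higher and 11 lower in G-HD than in PBS, 0 of 169 were higher and 2 lower in MPG-HD than in PBS, and 1 of 176 was higher and 7 lower in MPG-HD than in G-HD. Over all genes the shares higher and lower were 3.7% and 2.78%, 1.99% and 2.59%, and 1.62% and 3.22% in the same order. Among pairs with at least 50 UMIs, Pak1, a kinase that acts on the cytoskeleton, had 69 UMIs in PBS, 29 in G-HD (8.03 CPM) and 49 in MPG-HD (9.41 CPM) in microglia-like cells. PBS was the high library, with ratios of 0.401 for G-HD (0.251 to 0.627) and 0.470 for MPG-HD (0.319 to 0.687).

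Dpysl2, a cytoplasmic protein of the semaphorin response, read 25.9 CPM in PBS and 9.05 in G-HD in oligodendrocyte-like cells, a ratio of 0.350 (0.196 to 0.596). In fibroblast-like cells Rtn4r, the receptor of the myelin inhibitor Nogo, read 26.1 CPM in PBS and 11.6 in G-HD, a ratio of 0.444 (0.276 to 0.708), with 9 of its 49 PBS UMIs in 1 cell. Flrt3, a ligand of Unc5 receptors, had 22 UMIs in G-HD and 37 in MPG-HD in the same class, a ratio of 2.01 (1.16 to 3.58). Fyn, a kinase downstream of several guidance receptors, read 40.2 CPM in G-HD and 12.1 in MPG-HD, a ratio of 0.302 (0.192 to 0.460), with 15 of its 111 G-HD UMIs in 1 cell. In both comparisons with G-HD the pathway pairs past the limit in fibroblast-like cells went both ways, 3 higher and 4 lower against PBS and 1 higher and 6 lower for MPG-HD over G-HD, where the percentages of all genes given above for that class apply.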

How the data were processed

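The deposited matrices are whole-number UMI counts of genes by barcodes, not normalized, as their headers and values show. Cell Ranger 3.0.2 is named in the submitters' processing notes, together with GRCm38 and mm10, which are builds of mouse. The matrices themselves name version 3.1.0 in their header, and the identifiers of the 25199 features are all from rat Ensembl. Which rat build and annotation were used is not given in the sources used here.

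A barcode was kept with 200 or more genes detected and no more than 20% of UMIs mitochondrial (5815 of 6471). Scrublet, run through Scanpy 1.11.5 at an expected rate of 6%, called 12 of them (0.206%) as doublets. It was taken as not having worked, so doublets may remain, and the 12 were removed. Counts scaled to 10000 per cell and logged gave 2000 variable genes, chosen without the members (6 would have entered), 30 principal components and a graph of 20 neighbours (scikit-learn 1.9.0), split by Leiden at resolution 0.8 (leidenalg 0.10.2) into 25 clusters. Of these, 22 passed naming from 20 marker sets (140 of 152 genes found), given at least 3 markers each in 20% of the cells, and 1 of the 22 (cluster 12) is called by its number because its leading genes hold none of its markers.

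UMIs were summed by class and library and scaled to 1000000 (CPM). Ratios carry exact conditional and levels exact Poisson 95% intervals (SciPy 1.17.1), for counting error only. A sum of 0 would be bounded at 3 UMIs. The code was tested on simulated data. Libraries were compared in 6 classes of sufficient size (50 cells per library). Every member with at least 20 UMIs was named with its highest class. Values by library were given for up to 4 members with the most UMIs of each role group and for the first 12 pairs of each comparison with at least 50 UMIs and a ratio past 2-fold, ranked by the interval bound nearest 1, and for up to 3 pathway pairs in each direction. Other pairs were named after their values were seen. The members, lists and rules were chosen with earlier results of these data known. Alternatives covered the cell filter, doublets, clustering, weighting of cells and clusters, depth, count minimum and fold.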

Additional observations from a re-analysis of the deposited data

Results flagged for a closer look

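Nrp2 differed in opposite directions between G-HD and PBS in 2 classes. The ratio was 0.498 in microglia-like cells (82 against 157 UMIs) and 3.85 in Schwann cell-like cells (31 against 4 UMIs, with an interval that begins at 1.36), and the difference between the classes was not tested. In Schwann cell-like cells 1 G-HD cell held 4 of the 31 UMIs.

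Member UMIs were also read in clusters outside the named classes. Their summed level was 154.2 CPM in unnamed cluster 6 (298 cells), 304.7 CPM in unnamed cluster 9 (210 cells) and 349 CPM in unnamed cluster 23 (23 cells). The floor of 3 UMIs would be 4.28, 1.02 and 23.8 CPM there. That floor is meant for 1 gene, so it is no test of a sum over all matching genes. The share from free RNA in the droplets was not estimated, so these UMIs are not shown to come from the cells. Plxnb2 was the most frequent member in clusters 6 (40 of 108 member UMIs) and 9 (301 of 899). Cluster 6 is shallow, with 700241 UMIs in all, and cluster 9 is led by haemoglobin and cell cycle genes.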

How the results depend on the processing

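No paired analysis was possible because each group has 1 library, and for the same reason no library could be left out. Of 110 values of the 11 named gene and class pairs under the alternatives, 98 stayed within counting error, 10 moved and 2 turned, and the cause was not tested. Epha3 in fibroblast-like cells, MPG-HD over G-HD, turned to a log2 ratio of -0.17 with cells thinned to 1000 UMIs and -0.13 with clusters of a class weighted equally, a weighting chosen after seeing the data. The count of 35 members with the same highest class over the 6 compared classes stayed within 1.5 times in all alternatives run. Counts of pairs past the limit moved more, and thinning left only 20, 16 and 21 measured pairs. For G-HD over PBS, the 10 higher and 9 lower became 1 and 4 with thinning and 2 and 5 with at least 50 UMIs, and 19 were lower at a fold of 1.5. For MPG-HD over PBS, the 3 and 5 became 1 and 0 with thinning, 0 and 0 with at least 50 UMIs, 9 and 12 at a fold of 1.5, and 6 and 10 with every cell weighing the same. The 5 lower became 3 at resolution 0.4 and without each library's top cell, and 8 with clusters weighted equally. For MPG-HD over G-HD, the 7 and 4 became 2 and 2 with thinning, 3 and 1 with at least 50 UMIs, and 11 and 15 at a fold of 1.5. The 4 lower became 2 with the stricter cell filter, 11 with every cell weighing the same and 9 with clusters weighted equally. Depth limits these counts: the median pair held 57 to 65 UMIs.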

Other observations

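Members were also read in small groups of cells. In the 23 cells of cluster 23, led by Siglech, Irf8, Cd7 and Kdr, Epha2 had 14 UMIs in 8 cells (111 CPM), Nrp1 9 UMIs (71.4 CPM) and Sema4b 7 UMIs (55.5 CPM). Of the 14 Epha2 UMIs, 11 came from G-HD, 2 from PBS and 1 from MPG-HD, with 14 of the cells from G-HD. The 31 NK cell-like cells held 10 UMIs of Sema4a (98.0 CPM), a level near that of T cell-like cells (109.7 CPM). The 19 ependymal-like cells held 21 UMIs of Plxnb2 in 15 cells (125 CPM), 9 of Sema3c and 7 of Sema6d, 5 of the latter in 1 cell.

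Within oligodendrocyte-like cells some members differed between the clusters. Cluster 7, led by Masp1, Gpd1 and Opalin, had more Ephb1 (105 CPM) and Sema6d (70.4 CPM) than cluster 4, led by Klk6 and Hapln2 (40.3 and 26.3 CPM), while Sema4d (321 and 295 CPM) and Sema4c (19.1 and 21.2 CPM) were closer and Sema7a was 8.16 and 10.6 CPM. For Ephb1, the ratio of G-HD to PBS within cluster 7 was 1.01 (0.757 to 1.36). Sema4d there read 391 CPM in PBS, 348 in G-HD and 286 in MPG-HD, a ratio of MPG-HD to PBS of 0.732 (0.644 to 0.834), against 0.921 (0.819 to 1.04) in cluster 4. In macrophage-like cluster 1, Sema4a read 22.4 CPM in PBS, 11.8 in G-HD and 13.6 in MPG-HD, a ratio of G-HD to PBS of 0.525 (0.382 to 0.726), while Sema3c read 51.7, 44.5 and 61.0 CPM there.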
